A study of Mus musculus with 3 samples.

Results

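Retinal horizontal cells of mice at postnatal day 8 (P8) were compared with those at postnatal day 6 (P6) over all genes, in 1 single-cell RNA library from each age. A barcode was taken as a horizontal cell when it held at least 1000 detected genes, at most 10% of its molecules from mitochondrial genes, and a molecule of at least 2 of the 3 transcription factor genes Lhx1, Onecut1 and Onecut2. The rule kept 7145 cells at P6 and 3153 at P8, together 10298 of the 14531 barcodes of these libraries and of 20048 in the series, which also holds a library from day 11 (P11). P11 levels are set beside those of P6 and P8 in places, with no comparison drawn. Both ages carried the same 2 alleles, Cx57icre and Ai14. The first expresses Cre from the gene of connexin 57, and the second makes a red fluorescent protein wherever Cre has been active, so the cells were those that the driver had reached and the sorter had kept. Retinas were opened with papain before sorting. The labels used here give neither sex, nor the number of animals pooled, nor the hour of collection, and with 1 library a side none of these can be told apart from age.

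Horizontal cells are inhibitory interneurons whose processes end beside the terminals of rods and cones, where they receive glutamate and feed signals back. Neighbouring horizontal cells are joined by gap junctions made of connexin 57, spread in a regular mosaic, and in rodents keep a short axon whose terminal contacts rods. In the first postnatal weeks they trim early vertical neurites, extend within the outer plexiform layer and enter the invaginating synapses of photoreceptors. Ankyrins, which the series title names, tie membrane proteins to the spectrin skeleton.

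The summed counts of horizontal cells held 82305608 unique molecular identifiers (UMIs, 1 per captured molecule) at P6 and 62520239 at P8. The median cell held 12161 UMIs at P6 (quartiles 7183 and 14940) and 20671 at P8 (17789 and 23241). Mitochondrial genes took a median of 3.13% and 3.32% of a cell's UMIs. Only 13 barcodes were shared by the P6 and P8 libraries. Cells just inside the gene minimum held 1002 and 1000 genes, and those just outside 998 and 993. Cells with a UMI of exactly 2 of the 3 markers numbered 443 at P6 and 97 at P8, and 230 and 66 cells with a UMI of 1 marker stayed outside.

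The libraries differed in a way that the labels do not record. Xist, the RNA that coats the inactive X chromosome of female cells, made up 46866 UMIs at P6, or 569.4 CPM (counts per 1000000 UMIs of the summed cells), and 0 UMIs in the 3153 horizontal cells of P8. At this depth a count of 0 allows a level of up to 0.0480 CPM, taking 3 counts as the limit. At P6, 4472 cells (62.6%) held Xist and none of the Y-linked genes Ddx3y, Eif2s3y, Uty and Kdm5d, 1950 (27.3%) held a Y-linked UMI and no Xist, and 396 held both. At P8, 2985 cells (94.7%) held a Y-linked UMI. The P6 library thus mixed cells with female and male transcripts, whereas the P8 cells carried no Xist. A comparison of P8 with P6 is therefore also a comparison of cells of 1 sex with cells of both, so values from the cells with a Y-linked UMI and no Xist UMI at each age (1950 and 2985 cells) are given beside the main ones. That reading was added after the data had been seen.

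**Figure D1:**
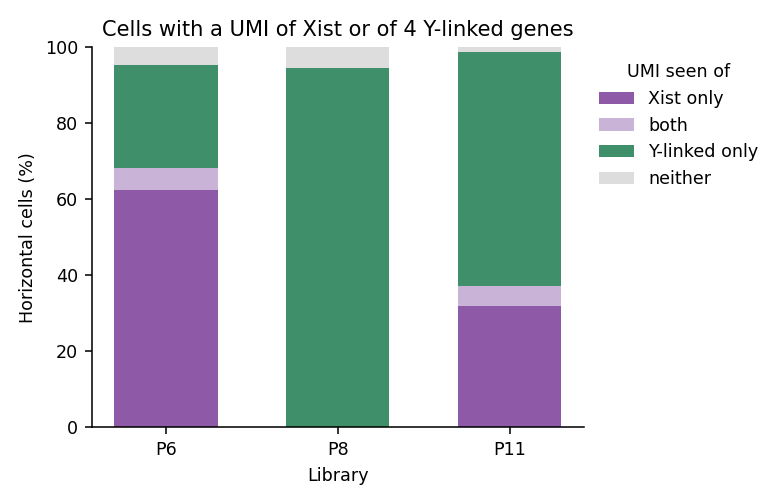
Share of horizontal cells (vertical axis, %) in each library with a UMI of Xist, of any of 4 Y-linked genes, of both or of neither. Xist-only cells made up 62.6% of the P6 library and 0% of the P8 library, where 94.7% of cells held a Y-linked UMI alone.

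The label was checked against markers. The 11 horizontal cell markers in the files summed to 8072 CPM at P6 and 12170 at P8, and each reached at least 5 CPM at both ages. The marker genes of the rule were present by choice: Lhx1 stood at 702.5 and 825.3 CPM, Onecut1 at 765.6 and 690.4, and Onecut2 at 1025 and 828.2. Of 13 marker lists for other cells, 9 summed to under 12 CPM at both ages, among them rods (7.62 and 6.96 CPM), cones (1.42 and 0.992), microglia (11.5 and 5.18), cycling progenitors (2.16 and 2.42) and endothelial cells (1.43 and 0.256). The other 4 rested on a few genes. Amacrine markers (517 and 510.0 CPM) were mostly Slc32a1 and Pax6, and ganglion cell markers (259 and 296) mostly Nefh. Bipolar markers (127 and 51.3) were mostly Prkca, at 106.7 and 45.5 CPM. Of 8 Müller glia markers (211 and 201), 3 reached 20 CPM at each age, with Glul the highest at 121.9 and 136.7. Under 5 CPM at each age were 5 of 8 amacrine, 5 of 7 ganglion cell and 5 of 8 Müller markers. Of 9 bipolar markers, 7 at P6 and 8 at P8 were under it. The Müller gene Slc1a3 stood at 1.22 CPM and at 0 UMIs.

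Over all genes, P8 horizontal cells had more RNA than P6 cells for Mgarp (16.5-fold), Vim (3.25-fold) and Calb1, and at a limit of 1.5-fold for 8 of 16 glycolysis genes and 47 of 81 nuclear genes of the respiratory chain and ATP synthase. They had less for Pyy, Marcksl1 and Gad1 and, by CPM, for most measured receptor, channel, adhesion and guidance genes, fewer of them once gene span was allowed for. The 7067 genes that reached 20 CPM at either age were tested. Of these, 122 (1.73%) stood 2-fold or more above P6 and 604 (8.55%) 2-fold or more below it, Xist among the latter. The median log2 ratio of all genes was -0.14. The balance of the counts rested on the scaling. TMM, which sets the trimmed mean of the log ratios to 0, moved the median of all genes up by 0.29 to 0.14 and gave 354 genes higher (5.01%) and 300 lower (4.25%). Genes higher at P8 were 16.8% of those past 2-fold by CPM, 54.1% by TMM and 59.3% by the median of ratios. At 1.5-fold, the limit used below for gene lists, 563 genes were higher (7.97%) and 1532 lower (21.7%) by CPM, against 1467 (20.8%) and 819 (11.6%) by TMM. The counts of list members below are to be read beside these shares. No test between ages was possible, and intervals below cover counting error only.

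The ratio followed the span of the gene on the chromosome, from first to last annotated base. In the shortest of 5 equal groups by span (median 4.82 kb) the median log2 ratio was 0.27, in the next groups 0.05 (14.3 kb), -0.10 (29.2 kb) and -0.29 (60.0 kb), and in the longest (164 kb) -0.73. Each step to longer genes came with a lower ratio. At least 2-fold lower were 18 of 1414 genes in the shortest group (1.27%) and 442 of 1414 in the longest (31.3%), and at least 2-fold higher 62 and 6. Among the 707 longest genes, with a median of 295 kb, 327 (46.3%) were at least 2-fold lower and the median was -0.95. The longest group sat 1.01 log2 units below the shortest (difference -1.01). Scaling cannot move that difference, since it shifts all genes alike, and under TMM the 2 medians were 0.56 and -0.44.

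The relation to span held within strata of level and of exon length. Among genes of low, middle and high level the medians were 0.15, 0.22 and 0.37 in the shortest group and -0.82, -0.67 and -0.72 in the longest. Among genes with short exon length they were 0.31 and -0.45, and with middle exon length 0.07 and -0.67. In cells with a Y-linked UMI and no Xist the gap was -0.98, and 105 of the 122 higher and 528 of the 604 lower genes were also past 2-fold there. These cells are part of the cells compared above, 2985 of 3153 at P8, so the overlap is not a repeat in other cells.

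**Figure D2:**
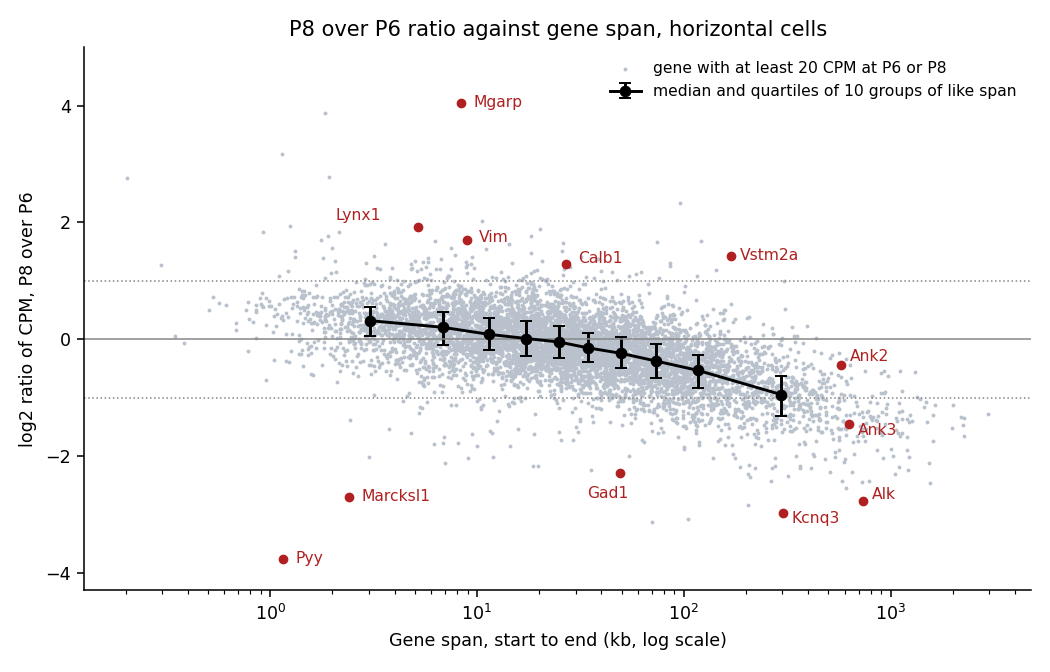
Log2 ratio of CPM, P8 over P6 (vertical axis), against gene span in kb (log scale) for each gene with at least 20 CPM at P6 or P8, Xist not drawn; black points are medians of 10 groups of like span, with quartiles. Medians go from 0.32 in the shortest group to -0.95 in the longest, with Mgarp, Vim and Calb1 far above their neighbours in span and Pyy, Marcksl1, Gad1 and Kcnq3 far below.

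The nuclear RNA Malat1 moved with the same axis. It stood at 20340 CPM at P6 and 15320 at P8 (21410 at P11). Between cells it was more uneven at P8, with a median of 10990 CPM and quartiles of 4042 and 24600, against 19810 (11810 and 26320) at P6. The longest-span genes took a median of 21.4% of a cell's UMIs at P6 and 12.6% at P8 (17.5% at P11), and the shortest-span genes 33.0% and 40.6% (35.6% at P11). Within a library, cells rich in Malat1 were also rich in UMIs of long genes, with a Spearman rank correlation across cells of 0.78 over 7145 cells at P6 and 0.88 over 3153 at P8, given as a description since both shares come from the same UMIs. At matched Malat1 the ages still differed. In cells with 15000 to 20000 CPM of Malat1 the longest genes took 20.9% at P6 (1262 cells) and 13.8% at P8 (291 cells), and the gap between the longest and shortest groups was -0.77. Nuclear RNA content, depth, sex and age all differed between the libraries, and their parts in the span relation were not tested further. For this reason most lists and some genes below are also given relative to genes of like span. That value is the log2 ratio less the median of the gene's own group when genes are cut into 10 groups by span.

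**Figure D3:**
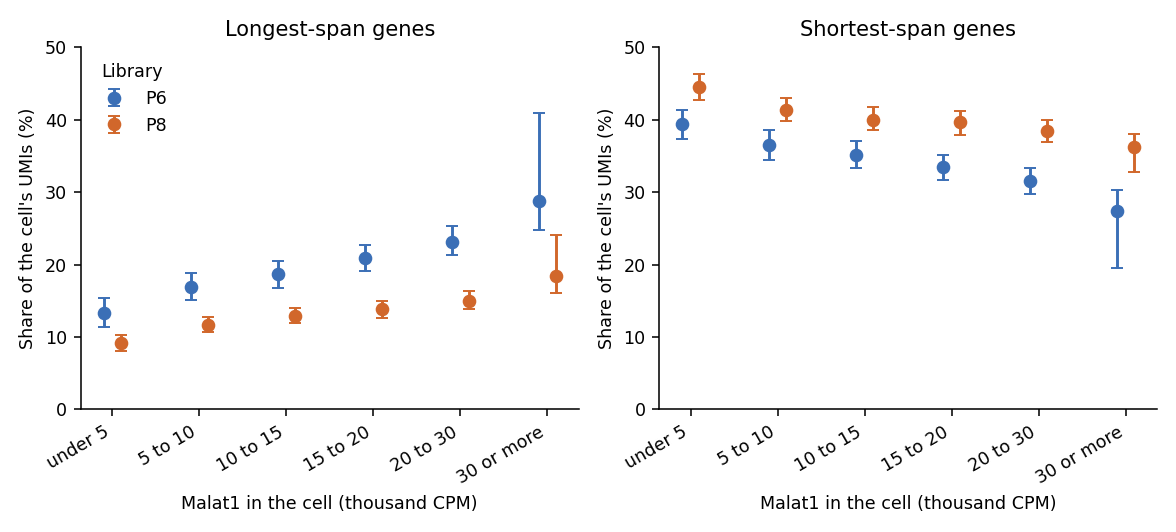
Share of a cell's UMIs (vertical axis, %) that came from the longest-span (left) and shortest-span (right) of 5 gene groups, for cells sorted by their Malat1 level (horizontal axis, in units of 1000 CPM). Points are medians and bars quartiles. In each of the 6 Malat1 classes P8 lay below P6 for the longest genes, such as 13.8% against 20.9% at 15000 to 20000 CPM, and above it for the shortest.

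Relative to genes of like span, 124 genes were past 2-fold upward (1.75%) and 155 downward (2.19%), and at 1.5-fold 599 (8.48%) and 685 (9.69%). The number of lower genes was thus much smaller than the 604 counted by CPM, and 140 genes were on both lists. Among the 3905 genes that reached 50 CPM at either age, 49 were past 2-fold upward and 39 downward by CPM, by TMM and relative to like span alike. The genes named next from either end of that ranking passed all of these readings.

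Mgarp had the highest ratio. It encodes a protein of mitochondria with a part in their transport along neurites, and it is a known marker of horizontal cells. It stood at 159.7 CPM at P6 and 2641 at P8 (5433 at P11), a 16.5-fold ratio (95% counting interval 16.2 to 16.8). In cells thinned to 5000 UMIs, the median P6 cell held 0 Mgarp UMIs (quartiles 0 and 1), whereas the median P8 cell held 13 (8 and 18). The difference was therefore spread over the cells and not carried by a few. Barcodes with none of the 3 marker genes, which could hold other cells, also showed it at P8. Thinned to 2000 UMIs, a Mgarp UMI was seen in 77.4% of 53 such barcodes and in 93.7% of horizontal cells. At P6 the shares were 33.1% of 124 such barcodes and 23.3% of horizontal cells. Before thinning, the median depth of all such barcodes was 3018 UMIs at P8 and 2314 at P6. Free RNA was not subtracted. In cells with a Y-linked UMI and no Xist the log2 ratio was 3.87, against 4.05 in all cells.

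Vim, the gene of the intermediate filament protein vimentin, stood at 781.6 CPM at P6 and 2541 at P8, 3.25-fold higher (3.22 to 3.28), and the median thinned cell held 4 UMIs at P6 and 12 at P8. Lynx1, which encodes a membrane-anchored brake on nicotinic receptors, stood at 26.3 and 99.5 CPM. Bhlhe40, a transcriptional repressor that feeds into the clock, stood at 16.2 and 52.1 CPM. At P11 these genes stood at 3639, 301.4 and 77.0 CPM.

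Of the other genes among the 10 highest, Fdx1, of the electron carrier ferredoxin, stood at 27.2 and 101.0 CPM, and Mrps28, of the mitochondrial ribosome, at 26.6 and 85.1. Ost4, of the enzyme that attaches sugars to proteins in the endoplasmic reticulum, stood at 61.4 and 210.6 CPM, Med30, of the Mediator complex, at 15.9 and 54.2, and the snoRNA host gene Snhg6 at 15.5 and 55.1. Their levels at P11 were 76.6, 46.6, 120.1, 43.7 and 22.3 CPM, in the same order.

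Lars2, the mitochondrial leucyl-tRNA synthetase gene, was 5.01-fold higher at P8, at 29.97 and 150.3 CPM. Beside it stand Gm42418 and AY036118, a pair of transcripts annotated on opposite strands of 1 stretch of chromosome 17 that holds ribosomal RNA sequence. They were looked up after their values had been seen. Gm42418 stood at 418.2 CPM at P6 and 6170 at P8 (1819 at P11), and AY036118 at 81.1, 291 and 84.2. The median thinned cell held 1 UMI of Gm42418 at P6 and 28.5 at P8. Lars2 stood at 75.3 CPM at P11, and the 304.9-kb gene Cmss1 at 264.1, 530.6 and 159.8 CPM at P6, P8 and P11. Whether reads of ribosomal RNA add to these genes was not tested.

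**Figure D4:**
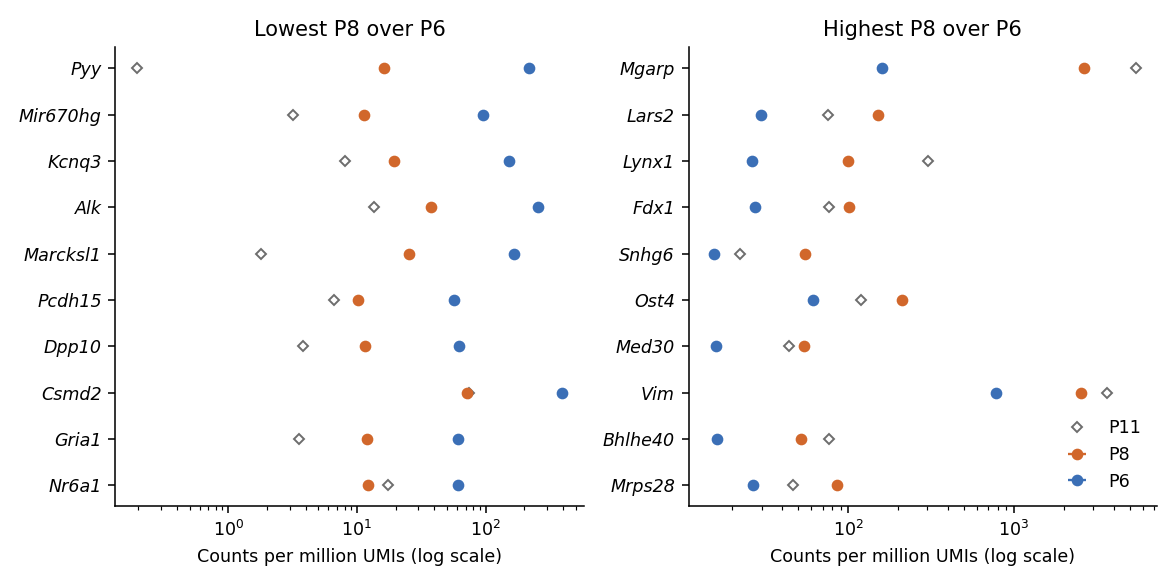
Levels in CPM (log scale) of the 10 genes with the lowest (left) and highest (right) P8 over P6 ratio that passed 2-fold by CPM, by TMM and relative to genes of like span, Xist left out; filled points are P6 and P8, open diamonds P11. Mgarp goes from 159.7 to 2641 CPM and Pyy from 218.2 to 16.1, and counting intervals are smaller than the points for most genes.

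Apart from Xist, Pyy had the lowest ratio. It encodes peptide YY, a relative of neuropeptide Y, and stood at 218.2 CPM at P6 and 16.1 at P8 (0.194 at P11), 13.5-fold lower at P8 (12.7 to 14.4). Its RNA was uneven between P6 cells: after thinning to 5000 UMIs the median cell held none, the upper quartile 1 and the 95th percentile 6 UMIs, and at P8 the 95th percentile was 0. Npy itself, the gene of neuropeptide Y, was abundant at both ages, at 6758 and 9286 CPM.

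Short genes with low ratios go against the direction of their span group. Marcksl1, whose product binds actin in growing neurites, spans 2.40 kb and stood at 165.2 CPM at P6 and 25.5 at P8 (1.79 at P11). The P8 level was 6.47-fold lower (6.15 to 6.82), and its log2 ratio relative to genes of like span was -3.01. Sox4, a transcription factor gene of immature neurons, stood at 151.9 and 49.8 CPM, and the imprinted neuronal gene Nnat at 830.5 and 319.7. Rgs4, whose product shortens signals of G protein receptors, stood at 61.3 and 17.7 CPM, and the nucleotidase-related gene Nt5dc2 at 203.9 and 59.6. At P11 these 4 stood at 20.6, 44.1, 4.29 and 9.15 CPM.

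Long genes with low ratios included channels, receptors and adhesion genes. Kcnq3, which encodes a subunit of the potassium channel that carries the M current, stood at 152.7 CPM at P6 and 19.4 at P8 (8.04 at P11). Alk, of a tyrosine kinase receptor, stood at 256.8, 37.8 and 13.7 CPM. Csmd2, which encodes a large synaptic membrane protein, stood at 390.9, 72.2 and 73.6 CPM. These span 300.3, 735.7 and 579.8 kb, and relative to genes of like span their log2 ratios were -2.03, -1.82 and -1.49. The rest of the 10 lowest, Xist left out, were Mir670hg, a microRNA host transcript (94.9 and 11.3 CPM), the protocadherin gene Pcdh15 (56.3 and 10.2), the potassium channel partner Dpp10 (62.4 and 11.4), the AMPA receptor subunit gene Gria1 (61.05 and 12.04) and the orphan nuclear receptor gene Nr6a1 (60.5 and 12.2).

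A few long genes were higher at P8. Vstm2a, an immunoglobulin-domain gene of 169.6 kb, stood at 19.99 and 53.8 CPM (99.8 at P11). Acyp2, an acylphosphatase gene, stood at 53.9 and 122.2 CPM, and Ostf1, a signalling adaptor gene, at 77.5 and 163.6. Of the 1414 longest genes these and Mrps28, Lars2 and Cmss1 were the 6 that passed 2-fold upward.

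Energy metabolism held the groups with the most members higher. Of 81 nuclear genes of oxidative phosphorylation, 47 were at least 1.5-fold higher at P8 and 0 lower, against 7.97% and 21.7% of all genes tested, with a median log2 ratio of 0.62. By TMM 68 were higher and 0 lower (median 0.91), and relative to like span 26 and 0 (median 0.42). The 7 assembly factor genes in that list, with symbols starting with Ndufaf, held 1 of the 47. Complex I had 26 of 38 higher, complex III 4 of 8, complex IV 7 of 11 and ATP synthase 9 of 17. Ndufa1, a complex I subunit gene on the X chromosome, stood at 149.8 CPM at P6 and 466.3 at P8, Cox7c of complex IV at 760.7 and 1698, and Ndufb1-ps at 212.5 and 516.0. The symbol of the last marks it as a pseudogene, and its reads may be shared with a copy. In cells with a Y-linked UMI and no Xist, Ndufa1 had a log2 ratio of 1.62, against 1.64 in all cells. Not every subunit was higher: Atp5a1, of the ATP synthase alpha subunit, stood at 783.0 and 791.3 CPM and Cox4i1, of complex IV, at 1541 and 1535.

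The mitochondrial genome did not follow as a set. Of 12 mitochondrial genes 2 were at least 1.5-fold higher and 1 lower by CPM, with a median of 0.09. By TMM 3 were higher and 0 lower (0.38), and relative to like span 2 and 2 (-0.23). mt-Cytb stood at 4419 and 5799 CPM, mt-Co1 at 4364 and 3963, and mt-Nd1 at 1941 and 1203, the lower one by CPM. The 2 higher by CPM, mt-Atp8 (11.9 and 80.6 CPM) and mt-Nd4l (92.0 and 222.3), each overlap a neighbouring gene on that genome, so their reads are hard to assign.

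Glycolysis genes were higher or within 1.5-fold but for 1. Of 16 measured, 8 were at least 1.5-fold higher and 1 lower, with a median of 0.57. By TMM 11 were higher and 1 lower (0.86), and relative to like span 8 and 1 (0.54). Aldoc, an aldolase gene, stood at 41.1 CPM at P6 and 94.9 at P8, Pgam1, of phosphoglycerate mutase, at 733.1 and 1323, and Gapdh at 1808 and 3028. Phosphofructokinase isozymes went opposite ways, with Pfkl, the liver form, at 116.4 and 206.1 CPM and Pfkp, the platelet form, at 63.4 and 32.6. Ldha and Ldhb, the lactate dehydrogenase genes, stood at 253.7 and 407.0 CPM and at 273.9 and 444.6. Eno1, Eno2, Hk1 and Pfkm lay within 1.5-fold.

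In the pentose phosphate pathway 1 of 6 genes was past 1.5-fold by CPM, Tkt, of transketolase, at 188.8 CPM at P6 and 436.5 at P8 (1333 at P11), while G6pdx, of the first enzyme, stood at 48.8 and 36.4. By TMM 3 of the 6 were higher and 0 lower, and relative to like span 1 and 0. In the citrate cycle 3 of 18 were higher and 0 lower by CPM, 6 and 0 by TMM, and 4 and 0 relative to like span. The largest ratio there was that of Sdhd, a membrane anchor of succinate dehydrogenase, at 45.7 and 134.5 CPM, whereas the catalytic subunit gene Sdha lay within 1.5-fold with a log2 ratio of -0.07. Of 21 cholesterol and fatty acid genes, 2 were higher and 4 lower, with a median of -0.19 (0.10 by TMM). These counts were close to the shares of all genes tested, 7.97% higher and 21.7% lower. Relative to like span 1 was higher and 2 lower (-0.23). Thrsp, a lipogenic regulator, stood at 43.0, 105.5 and 364.1 CPM at P6, P8 and P11, and the desaturase gene Scd2 at 562.2, 311.7 and 380.4.

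Among 10 measured genes of hypoxia and metallothioneins, 4 were at least 1.5-fold higher and 0 lower, with a median of 0.16. By TMM 5 were higher and 0 lower (0.44), and relative to like span 4 and 0 (0.35). The 4 higher by CPM were Mt1, a metal-binding protein gene (10.6 and 40.6 CPM), Ankrd37, a target of the hypoxia-inducible factor (17.0 and 42.7), Vegfa (18.2 and 34.9) and the mitophagy gene Bnip3 (53.9 and 93.1). Hif1a itself stood at 133.2 and 131.8 CPM, and Ndrg1 and Bnip3l were within 1.5-fold. The core letters of the hypoxia response element, ACGTG, searched on both strands and also part of the E-box letters CACGTG, were looked up in RefSeq promoters (build GRCm38.p6, 250 bases before to 50 after each start). Of 32851 promoters 19.6% held a match, and of 5633 tested genes with a promoter there, a share of 31.2% held one in any of their promoters. Matches were found in 9 of 16 glycolysis genes and in all 8 of the hypoxia genes with a promoter in the table. The hypoxia genes were listed for their tie to that response, so matches there were in part set in advance. Those 8 include genes within 1.5-fold, so a match does not set the 4 higher genes apart. A match is a run of letters and not a site. The runs below come from genes picked for their higher ratios, and whether they act in these cells was not tested. Runs that lie outside annotated exons are shown for Mgarp and for 3 of the 4 higher hypoxia genes, with their flanking bases, written 5′ to 3′ on the strand of the gene with the matched letters in capitals:
Mgarp, chr3:51396752-51396776, minus strand, 219 bases before the start: gcgggtcaggCACGTaacagcgact
Ankrd37, chr8:46000077-46000100, minus strand, 241 bases before the start: cccagcagtACGTGcctagctcgg
Bnip3, chr7:138909599-138909624, minus strand, 108 bases before the start: gcacgcgccgCACGTGccacacgctc
Mt1, chr8:94179000-94179024, plus strand, 79 bases before the start: tgatgttccaCACGTcacatgggtc
The match in Vegfa and a second one in Ankrd37 overlapped annotated exons and are not shown. That of Bnip3 is an E-box, so it matched on both strands.

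Cytosolic ribosomal protein genes lay with other short genes. Of 82 measured, without the S6 kinase genes that share the symbol start, 4 were at least 1.5-fold higher and 2 lower, with a median of 0.27 (0.56 by TMM, and -0.03 relative to like span, the other side of 0). With the S6 kinases, 34 of 88 were past 1.5-fold upward by TMM and 0 relative to like span. Rpl9, at 761.5 and 1248 CPM, and Rps18, at 601.7 and 984.0, had the highest ratios, and Rps12, at 416.0 and 250.1, the lowest. Genes of ribosomal proteins have many processed copies in the genome, which may share reads.

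Genes of neurite growth were lower or within 1.5-fold. Of 26 measured, 0 were at least 1.5-fold higher and 13 lower, with a median of -0.58. By TMM 3 were higher and 7 lower (-0.29), and relative to like span 2 and 8 (-0.33). The microtubule-binding genes Dcx and Map1b, active in migrating and growing neurons, stood at 728.7 and 369.8 CPM and at 688.9 and 371.8. Gap43, a growth cone gene, stood at 254.6 and 154.7 CPM, and Dpysl3, of the collapsin response family, at 210.1 and 101.7. Stmn2, another growth cone gene, did not go with them, at 1913 and 2118 CPM. Tubulins and neurofilaments were split, with 4 of 18 higher and 3 lower by CPM, and 7 and 1 by TMM, which moved the median from -0.12 to 0.17. Of all genes tested, 7.97% were higher and 21.7% lower by CPM, and 20.8% and 11.6% by TMM. Relative to like span 1 was higher and 2 lower, with a median of -0.17. Tubb2a stood at 1441 CPM at P6 and 2672 at P8 and Tubb4b at 317.6 and 554.9, whereas Nefm, the middle neurofilament, stood at 1231 and 735.0 and Mapt, of the axonal protein tau, at 605.8 and 349.9. Vim, described above, belongs to the same list.

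Transcription factors of the lineage were lower or flat. Of 11 measured, 0 were at least 1.5-fold higher and 8 lower, with a median of -0.74 (0 and 4 by TMM, -0.46; 0 and 5 relative to like span, -0.57). Besides Sox4 these were Esrrb, Meis1, Onecut3, Sall3, Rorb, Esrrg and Vax2. Onecut3, a relative of the genes of the rule, stood at 250.2 CPM at P6 and 136.0 at P8. Rorb, at 956.8 and 571.6, and Esrrg, at 321.9 and 196.1, are long genes and lay above genes of like span (0.20 and 0.23). Prox1, at 931.5 and 972.5 CPM, and Tfap2b, at 1671 and 1466, which mark mature horizontal cells, were within 1.5-fold.

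Ankyrins and their skeleton differed among themselves. Ank2, of ankyrin-B, stood at 1964 CPM at P6 and 1442 at P8 (2124 at P11), and Ank3, of ankyrin-G, at 551.4, 201.1 and 279.1. Both lie in the longest group, at 577.7 and 628.7 kb, and relative to genes of like span they fell on opposite sides, Ank2 at 0.50 and Ank3 at -0.51. Ank1 was low, at 3.34 and 1.36 CPM, under the 20 CPM required for a ratio. The list of ankyrins and spectrins held 14 measured genes, 0 past 1.5-fold upward and 6 downward, with a median of -0.44 (-0.15 by TMM) that was 0.19 relative to like span, where 2 were higher and 3 lower. Sptbn4, the beta-spectrin of axon initial segments, stood at 38.7 and 15.1 CPM, while Sptan1 and Sptbn1, of the main neuronal spectrins, stood at 269.8 and 254.1 and at 475.2 and 431.4. In cells with a Y-linked UMI and no Xist, the log2 ratios of Ank2 and Ank3 were -0.41 and -1.40, against -0.45 and -1.46 in all cells.

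Membrane proteins that bind ankyrins had 14 of 21 members past 1.5-fold downward and 0 upward (median -0.79), and 5 and 0 relative to like span (-0.27). Slc8a1, of a sodium-calcium exchanger, stood at 75.8 and 16.8 CPM, and the sodium channel gene Scn8a at 80.7 and 32.7. Atp1b1, of a beta subunit of the sodium pump, was flat at 1891 and 1977 CPM.

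Glutamate receptor and postsynaptic genes were lower by CPM in most members, and in fewer relative to like span. Of 27 measured, 0 stood 1.5-fold or more above P6 and 22 below, with a median of -1.02. By TMM 16 were lower (-0.73), and relative to like span 8 (-0.36). Among AMPA receptor genes, Gria1 stood as given above, Gria2 at 250.5 and 127.7, Gria3 at 271.1 and 153.1 and Gria4 at 644.6 and 300.9. Gria1 was the furthest from genes of like span (-1.40), and Gria4 (-0.15) and Gria3 (0.12) were close to them. The metabotropic receptor gene Grm7 stood at 138.6 and 33.9 CPM and the kainate receptor gene Grik4 at 106.1 and 26.4. The scaffold gene Dlg4 and the AMPA receptor partner Cacng2 were within 1.5-fold, at 86.2 and 80.5 CPM and at 160.7 and 142.5.

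Genes of GABA and chloride handling, taken as 1 list, had 8 of 12 lower and 1 higher (median -0.66), 5 and 1 by TMM (-0.37), and 3 and 2 relative to like span (-0.24). Gad1, of a glutamate decarboxylase that makes GABA, held 39.2 CPM at P6 and 7.98 at P8 (0.940 at P11). In cells with a Y-linked UMI and no Xist its log2 ratio was -2.09, against -2.30 in all cells. Slc32a1, of the vesicular GABA transporter, was flat at 272.1 and 258.9 CPM. The chloride carriers went apart. Slc12a5, of the exporter KCC2, was the 1 higher member of the list by CPM, at 79.7 CPM at P6 and 123.9 at P8 (189.8 at P11). Slc12a2, of the importer NKCC1, stood at 268.0, 173.3 and 267.4.

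Channels were the list with the lowest median among protein-coding lists. Of 16 potassium and cation channel and gap junction genes, 14 were past 1.5-fold downward and 1 upward (median -1.24), and 6 and 1 relative to like span (-0.46). Kcnd3 and Kcnb2, of voltage-gated potassium channels, stood at 41.7 and 9.04 CPM and at 224.8 and 66.8, and Kcnma1, of the calcium-activated BK channel, at 752.1 and 258.0. The higher one was Gja10, of connexin 57, whose gene directs the Cre of these mice, at 9.94 and 26.1 CPM, while the connexin 45 gene Gjc1 stood at 21.04 and 12.8. Of 10 calcium channel genes 9 were lower and 0 higher (median -1.03), and 3 and 0 relative to like span (-0.30). Cacna1c, of an L-type pore, stood at 20.1 and 3.42 CPM and the auxiliary subunit gene Cacna2d3 at 1354 and 517.0, whereas the T-type gene Cacna1h stood at 133.2 and 166.6.

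Vesicle release genes were the synaptic list nearest to 0. Of 32 measured 23 lay within 1.5-fold, 9 were lower and 0 higher, with a median of -0.22 that was 0.06 by TMM and -0.10 relative to like span. Among all genes tested 21.7% were lower and 7.97% higher by CPM. Snap25, of the fusion machinery, stood at 4252 and 3618 CPM and the vesicle protein gene Rab3a at 762.5 and 912.6. Those furthest down were Syn3 (79.8 and 28.3 CPM), Cplx1, a complexin gene (22.6 and 8.77), and the active zone gene Rims1 (125.2 and 49.6).

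Adhesion and guidance genes were lower in most members. Synaptic adhesion had 20 of 27 past 1.5-fold downward and 0 upward (median -0.92), and 10 and 2 relative to like span (-0.40). Guidance and mosaic spacing had 18 of 21 lower and 0 higher (-1.09), and 7 and 0 relative to like span (-0.34). Cadherins had 7 of 11 lower and 0 higher (-0.89), and 2 and 1 relative to like span, with a median of 0.03 there. By TMM the lower members numbered 14, 17 and 6 in these lists, 11 among potassium and cation channels and gap junctions, 7 among calcium channels and 9 among ankyrin-binding proteins. Nrxn3, a presynaptic neurexin gene, stood at 3675 CPM at P6 and 1103 at P8, its partner Nlgn1 at 256.4 and 85.7, and the teneurin gene Tenm2 at 34.8 and 8.61. The median thinned cell held 17 UMIs of Nrxn3 at P6 and 5 at P8. Thinned to 2000 UMIs, barcodes with none of the 3 marker genes held a Tenm2 UMI in 60.5% of 124 at P6 and 35.85% of 53 at P8. In horizontal cells the shares were 4.85% and 1.41%. The log2 ratio of Tenm2 was -1.21 in cells of 10000 to 20000 UMIs, against -2.02 in all cells. Whether free RNA adds to the level of Tenm2 was not tested. The netrin receptor gene Dcc stood at 407.1 and 89.2 CPM, the ephrin gene Efna5 at 40.9 and 9.95, and Megf10 and Megf11, which space horizontal cells in their mosaic, at 223.5 and 92.3 and at 606.8 and 294.8. Megf11 lay close to genes of like span (-0.09) and Dcc well under them (-1.24). Lrfn5 went against its span, at 32.4 and 37.4 CPM, with a log2 ratio of 1.16 relative to genes of like span.

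**Figure D5:**
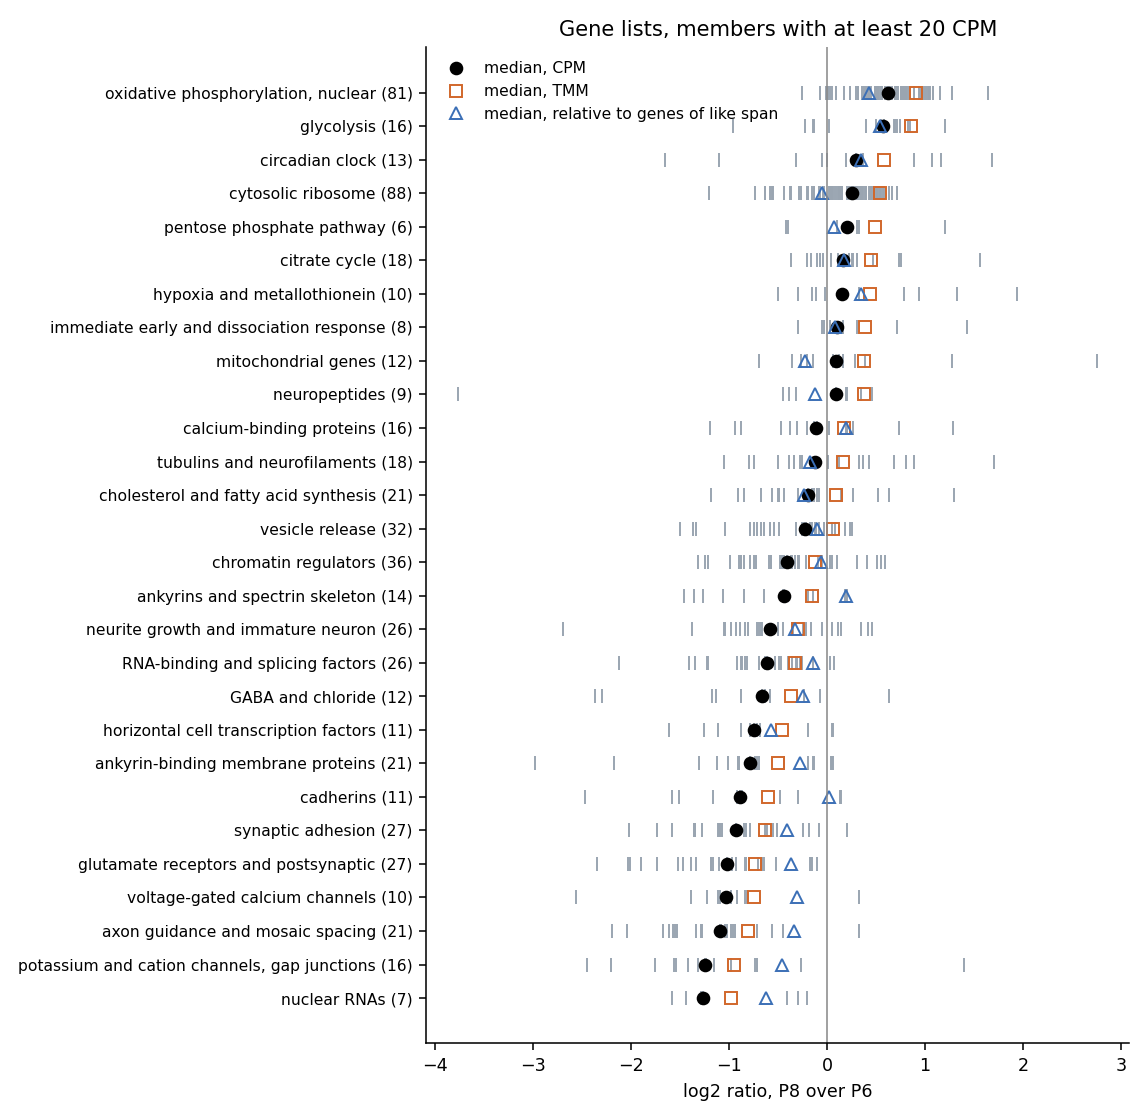
Log2 ratio of P8 over P6 (horizontal axis) for the measured members of 28 gene lists (grey ticks; number of members in brackets), with the median by CPM (black), by TMM (orange squares) and relative to genes of like span (blue triangles). Oxidative phosphorylation (0.62) and glycolysis (0.57) have the highest medians and stay above 0 in all 3 readings. So do the circadian clock, hypoxia, citrate cycle, pentose phosphate and immediate early lists, at lower medians. The medians of cadherins, of calcium-binding proteins and of the ankyrin and spectrin list move from below 0 to above 0 once span is allowed for.

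Of 16 calcium-binding protein genes, 2 were higher and 3 lower, near the shares of all genes tested (7.97% and 21.7%). Their median was -0.11 (0.17 by TMM). Relative to like span 4 were higher and 2 lower, with a median of 0.20. Calb1, of the buffer calbindin that labels horizontal cells in mice, stood at 701.8 CPM at P6 and 1714 at P8 (2952 at P11), and the median thinned cell held 3 UMIs at P6 and 8 at P8. Hpca, of the calcium sensor hippocalcin, stood at 38.0 and 16.7 CPM. Camk2d, of a calcium-dependent kinase, stood at 990.0 and 517.8 CPM, which was the median of genes of like span (0.01).

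Genes of the circadian clock were partly higher, with 4 of 13 past 1.5-fold upward and 2 downward (median 0.30), and 7 and 2 by TMM. Relative to like span 4 were higher and 1 lower (0.35). Those higher by CPM were Bhlhe40, the output genes Dbp (154.0 and 345.2 CPM) and Hlf (16.1 and 33.8), and Bhlhe41, at 16.1 and 29.9. The activator gene Arntl stood at 50.6 and 23.6 CPM and the long nuclear receptor gene Rora at 612.2 and 194.6, while Cry1 and Clock were within 1.5-fold. The hour of collection is not among the labels, so the hour and the age cannot be told apart. Immediate early and dissociation response genes were mostly too low to measure, with 23 of 31 under 20 CPM at both ages. Fos stood at 0.984 and 0.688 CPM and Jun at 9.17 and 24.7.

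RNA-binding genes were lower or within 1.5-fold, and chromatin genes were split by the scaling. Of 26 RNA-binding and splicing genes 0 were higher and 14 lower (median -0.61), 0 and 7 by TMM and 3 and 5 relative to like span (-0.14), among them Rbfox1 (401.5 and 92.3 CPM) and the neural splicing activator Srrm4 (328.4 and 129.3). Of 36 chromatin genes 1 was higher and 12 lower (-0.41), 5 and 7 by TMM (-0.12), and 3 and 4 relative to like span (-0.06). The like-span counts were near the shares of all genes tested, 8.48% higher and 9.69% lower. The higher one by CPM was Smarca4, the ATPase of the BAF remodelling complex, at 1395 and 2100 CPM, and the histone H3.3 genes H3f3a and H3f3b stood at 2009 and 2954 and at 982.7 and 1307. Hdac9 stood at 274.8 and 110.3 CPM.

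The 4 X-linked genes looked up that escape X inactivation (Kdm6a, Kdm5c, Eif2s3x and Ddx3x) had ratios nearer 0 when cells with a Y-linked UMI and no Xist were compared. Kdm6a, a histone demethylase gene, is one of them. It stood at 67.0 CPM at P6 and 29.0 at P8 (log2 ratio -1.21), and at 49.6 and 29.3 (-0.76) in cells with a Y-linked UMI and no Xist. Eif2s3x, another escaping gene, had log2 ratios of -0.26 in all cells and -0.01 in those cells, and Ddx3x -0.58 and -0.35. The 4 Y-linked genes chose those cells, so their levels there are a description. Ddx3y stood at 96.3 CPM at P6 and 93.2 at P8 in them, Eif2s3y at 91.2 and 86.6, Kdm5d at 26.7 and 16.5, and Uty, which spans 148.9 kb, at 62.8 and 29.8.

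Nuclear RNAs had the lowest median of all the lists. Past 1.5-fold were 4 of 7, all downward (median -1.26, and -0.62 relative to like span). Meg3, an imprinted long RNA, stood at 3037 CPM at P6 and 1013 at P8 (1004 at P11), in thinned cells 14 UMIs in the median P6 cell and 5 in the median P8 cell. Kcnq1ot1 stood at 123.6 and 45.7 CPM and Rian at 190.6 and 78.0. Since nuclear RNAs and long genes were lower together, their part in the lists of long genes above was not tested.

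Most of the named genes kept their side when cells were matched. Of the 121 genes named or listed by the rules, 120 could be compared in cells with 10000 to 20000 UMIs (4251 at P6 and 1058 at P8), and all 120 kept the sign of their ratio there, as did all 120 in cells with 15000 to 20000 CPM of Malat1 and all 119 in cells with a Y-linked UMI and no Xist. Past 1.5-fold in those settings were 114 of 114, 110 of 114 and 111 of 113 genes that had been past it. Most of these genes were chosen for large ratios, and the matched cells are part of the cells that gave those ratios. Keeping their side was thus largely set in advance, and the counts are a description. The values moved with the matching. Pyy had log2 ratios of -4.27, -4.28 and -3.71 in the 3 settings, against -3.76 in all cells, Alk of -3.03, -2.17 and -2.57, against -2.77, and Mgarp of 4.04, 4.01 and 3.87, against 4.05.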

How the data were processed

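The authors deposited raw counts of UMIs for each gene and barcode from the 10x 3' chemistry, 1 library per age. Per the submitters' processing notes, reads were aligned and counted by Cell Ranger (version 7.1.0) against mm10. Which annotation release it used, and whether reads in introns entered the counts, is not given in the sources used here, so the part of intronic reads in the relation to gene span was not tested.

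From the deposited counts, barcodes were filtered by the rule above and their counts summed per library, so P8 was set against P6 with 1 sample a side, no test and no replicate error. CPM used the summed UMIs of the 32285 features, and TMM factors came from edgeR 4.0.16 in R 4.3.3. A level of at least 20 CPM at either age was required. Gene spans, exons and strands came from GENCODE vM21 on the same build, and like-span values subtract the median of 10 span groups. Intervals (95%, exact Poisson or conditional binomial) cover counting error only. Cells were thinned to 5000 UMIs (6214 and 3004 cells, leaving out 931 and 149) for quartiles, and to 2000 for shares, with a fixed seed. Doublets were kept, since Scrublet (scanpy 1.11.5) called 0% and 0.244% of cells at its own threshold and was taken not to have worked; free RNA was not removed. Of 7572 and 3282 barcodes that passed the gene and mitochondrial limits, the marker rule kept 94.4% and 96.1%.

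The genes named are the 10 highest and 10 lowest that passed 2-fold in all 3 readings at 50 CPM or more, the 6 highest and lowest of the shortest and longest span groups, up to 3 each way from every list, and Ank1, Ank2, Ank3, Calb1, Gja10, Npy, Malat1, Xist and the marker genes. Provisional or duplicated symbols, Xist, mitochondrial, ribosomal protein, hemoglobin and Y-linked genes were outside the ranked part of that rule, and members named beyond it were chosen after their values were seen. The members and gene lists were chosen with earlier results of these data known. Scripts were tested on simulated counts. Other scalings, filters, cell choices and span groupings were run as alternatives. The P11 library was not compared.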

Additional observations from a re-analysis of the deposited data

How the results depend on the processing

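The gap of -1.01 between the longest and shortest span groups stayed below 0 in each alternative that gave one. The counts of 122 higher and 604 lower genes, or the gap, moved in the following: TMM gave 354 and 300 genes, the median of ratios 392 and 269, a minimum of 100 CPM 64 and 219 with a gap of -1.27, a minimum of 5 CPM 1112 lower with a gap of -0.91, and like-span values 155 lower. The gap was -0.92 in cells thinned to 5000 UMIs, -1.22 in cells of 10000 to 20000 UMIs, -0.77 in cells of 15000 to 20000 CPM of Malat1, -1.27 with 10 span groups and -0.84 with exon length in place of span. Higher and lower genes numbered 107 and 519 in the thinned cells, 137 and 798 in cells of 10000 to 20000 UMIs, and 101 and 404 in the Malat1-matched cells. A minimum of 5 CPM gave 181 higher and like-span values 124. The settings not named so far gave 110 to 128 higher and 535 to 638 lower genes. Relative to like span, the median of the cadherins moved from -0.89 to 0.026 and the log2 ratio of Camk2d from -0.93 to 0.012, 117 of 121 named genes kept their sign, and 89 of 115 were still past 1.5-fold. Part of the named genes had been chosen by their like-span values among other readings, so these counts are a description. With the highest Scrublet scores removed, 121 and 598 genes were counted. No paired analysis was possible because each age has 1 library. Depth limits genes under 20 CPM, and with 1 library an age the spread between animals is unknown.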

Other observations

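By CPM, neuropeptide genes other than Pyy lay within 1.5-fold in horizontal cells, 8 of 9 measured. By TMM 2 of the 9 were at least 1.5-fold higher, among them Npy (1.68-fold). Among nuclear genes of succinate and fumarate metabolism, Fh1, of fumarate hydratase, stood at 72.6 CPM at P6 and 122.8 at P8, and Suclg1, of succinyl-CoA ligase, at 174.2 and 290.7. Idi1, of an early step of isoprenoid synthesis, stood at 18.3 and 28.3 CPM, and Acaca, of acetyl-CoA carboxylase, at 100.3 and 44.2.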
